A study of Homo sapiens with 4 samples.

Results

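Mitosis and G2/M genes were examined in ovarian cancer stem cells (OCSCs) of the SKOV3 line after exposure to LY500307, an agonist of estrogen receptor β (ERβ). The group holds 46 genes, chosen by symbol from the 23228 gene symbols of the count files, and covers mitotic cyclins and kinases, condensin, spindle and cytokinesis genes, without kinesins and kinetochore genes. SKOV3 is an established line of human ovarian cancer cells. Its ALDH+ cells, sorted with the ALDEFLUOR assay for aldehyde dehydrogenase activity, were grown as spheroids in serum-free medium with EGF, bFGF, hydrocortisone and insulin. They then received vehicle (2 samples) or 5 µM LY500307 (2 samples), and RNA was taken at 24 h. By their labels all 4 samples come from this single line. Nothing in the sources says that the replicates were separate cultures, so p-values measure only the spread between these samples. RNA of dividing cells is mixed in each sample. A changed share of cells in G2 or mitosis and less RNA per cell thus cannot be told apart. At a later time and the same dose, the paper found a larger share of SKOV3 OCSCs in G2/M by flow cytometry. Its gene set analysis of the RNA data found G2/M checkpoint and mitotic spindle genes negatively enriched.

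Cells enter mitosis when CDK1, bound to cyclin A or B, is switched on, and leave it when the anaphase-promoting complex (APC/C) marks cyclin B and securin for destruction. In between, condensin and topoisomerase II compact and untangle the chromosomes, Polo and Aurora kinases and microtubule-binding proteins build the spindle, and RhoA regulators close the cleavage furrow. Transcripts of many of these genes are periodic and peak in G2 and M phase. Their promoters are known for CCAAT boxes and for the cell cycle genes homology region (CHR), and they are read by FOXM1 and the MYB-MuvB complexes and silenced by DREAM, so their summed level is widely used as a measure of proliferation.

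Those promoter elements are shown here for the members with the lowest p-values below that hold a CHR. A promoter in the RefSeq table (GRCh38.p14) is 250 bases before to 50 bases after a transcription start, and 38 of the 46 members had at least 1, with 51 windows in all. FOXM1, AURKA, PBK, BIRC5, UBE2C, CDCA2, TPX2 and RACGAP1 had none. The letters TTTGAA or TTCGAA (CHR), read on both strands, were in 32 of the 51 windows (62.7%), against 16.4% of all 35116 windows in the table. CCAAT, also on both strands, was in 35 of the 51 windows (68.6%), against 34.6% of all windows, and a CCAAT match can share at most 1 base with a CHR match. The 6 stretches below run from 120 bases before to 30 bases after the start, 5′ to 3′ on the gene's strand, and capitals mark each CHR or CCAAT match on either strand.
NCAPG, chr4:17810859-17811008, plus strand: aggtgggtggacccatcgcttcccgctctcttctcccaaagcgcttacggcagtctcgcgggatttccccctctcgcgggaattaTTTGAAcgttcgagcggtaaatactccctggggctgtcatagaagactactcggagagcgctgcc
SMC4, chr3:160399530-160399679, plus strand: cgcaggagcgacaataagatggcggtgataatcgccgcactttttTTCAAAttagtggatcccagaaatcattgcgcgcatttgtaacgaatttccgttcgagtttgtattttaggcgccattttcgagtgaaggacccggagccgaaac
DLGAP5, chr14:55191556-55191705, minus strand: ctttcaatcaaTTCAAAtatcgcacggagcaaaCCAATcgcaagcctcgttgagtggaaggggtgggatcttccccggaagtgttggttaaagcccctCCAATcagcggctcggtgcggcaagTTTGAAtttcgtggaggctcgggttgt
NUSAP1, chr15:41332761-41332910, plus strand: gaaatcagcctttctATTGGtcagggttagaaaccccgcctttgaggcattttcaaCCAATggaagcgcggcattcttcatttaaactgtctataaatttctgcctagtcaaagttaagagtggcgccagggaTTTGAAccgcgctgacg
PRC1, chr15:90994506-90994655, minus strand: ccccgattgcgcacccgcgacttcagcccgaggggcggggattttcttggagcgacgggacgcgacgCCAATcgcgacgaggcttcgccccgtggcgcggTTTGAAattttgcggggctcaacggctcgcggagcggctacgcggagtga
CKAP2L, chr2:112764580-112764729, minus strand: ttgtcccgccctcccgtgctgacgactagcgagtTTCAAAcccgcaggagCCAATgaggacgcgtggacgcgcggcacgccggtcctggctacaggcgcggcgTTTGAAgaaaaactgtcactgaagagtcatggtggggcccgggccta

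In PRC1 and CKAP2L a CCAAT box lies upstream of a CHR just before the start, whereas NCAPG and SMC4 hold a CHR and no CCAAT in their windows. The starts of the CHR matches are at -20 in PRC1, at -35 in NCAPG and at -75 in SMC4. The 16 windows of members that were lower with LY500307 at an unadjusted p below 0.05 held a CHR in 75% and a CCAAT in 56.2%. In the 35 windows of the other members these shares were 57.1% and 74.3%, so members of either kind carried the elements. A letter match is a description of the sequence, not a binding site.

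The files held between 28841701 and 34943882 reads on genes per sample, and all 46 members passed the filter on low counts. SKOV3 epithelial markers were present in part. EPCAM was at 200 to 238 CPM (reads scaled to a common library size, here by library totals). ERBB2 was at 48.1 to 58.9 CPM and KRT18 at 23.2 to 32.9 CPM. PAX8 had 0 reads in all samples, and KRT7, KRT19, CDH1 and WT1 had at most 4 reads in any sample. MUC16 had 1 to 6 reads and KRT8 had 9 to 33 reads. The ALDH genes ALDH1A1 and ALDH1A2 were at 4.65 to 5.60 and 9.93 to 11.2 CPM. Among markers of other cells, PTPRC, CD3E, PECAM1 and CDH5 had at most 4 reads and VWF had 0 to 11 reads, whereas CD68, a macrophage marker, was at 11.9 to 17.7 CPM. The fibroblast markers COL1A1 and COL3A1 were at 180 to 535 CPM, and DCN and LUM at 7.53 to 17.4 CPM. The summed level of the 4 fibroblast markers was 641 and 648 CPM with vehicle and 688 and 799 CPM with LY500307, and its part in the results was not tested. The LY500307 samples differed from each other more than the vehicle samples did (chi-square over its degrees of freedom for the gene counts, 42.5 against 5.16).

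More mitosis and G2/M genes were lower than higher in LY500307-treated OCSCs, by small amounts. In edgeR's quasi-likelihood test, 16 of the 46 members were lower at an unadjusted p below 0.05, against 5.5% of the 14473 genes tested, and 1 member, CKS2, was higher, against 6.09% of all genes. The 16 members had between 0.653 and 0.818 times their vehicle level. SMC4, a condensin subunit, was the single member that also passed the study's limit of 0.5 on the absolute log2 fold change, a rule met in the lower direction by 1.86% and in the higher direction by 2.76% of all genes. The other 29 members did not pass an unadjusted p of 0.05. With edgeR, 0 members and 0.0% of all genes had an adjusted p below 0.05, and the smallest adjusted p among members was 0.422. DESeq2 gave 16 members lower, against 4.46% of all genes, and 0 higher, against 785 of all genes, at an unadjusted p below 0.05. At an adjusted p below 0.05 it gave 0 members, the smallest being 0.0619, and 20 of all genes. With 2 against 2 samples, an exact two-sided permutation test cannot go below 0.333 for any single gene.

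The median log2 fold change of the 46 members was -0.17, compared with -0.0001 over all genes tested, and 36 of the members had a negative value, as did 50.0% of all genes. Together the members took 6826 and 6686 CPM in the vehicle samples (scaled by TMM, as are all CPM values from here on), and 5975 and 5563 CPM in the LY500307 samples. The summed level was thus below that of either vehicle sample in both LY500307 samples. The sum is not scaled by length, so long and abundant members such as TOP2A, MKI67 and SMC4 weigh heavily in it. Of these, MKI67 and SMC4 were lowest in LY500307 replicate 2. For 30 members both LY500307 samples lay below both vehicle samples, against 24.4% of all genes, and for 2 members, CDC20 and CKS2, they lay above, against 24.2%. Replicates of a group differed by a median of 0.06 on the log2 scale between the vehicle samples and 0.18 between the LY500307 samples over the members, and by 0.11 and 0.22 over all genes.

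**Figure D1:**
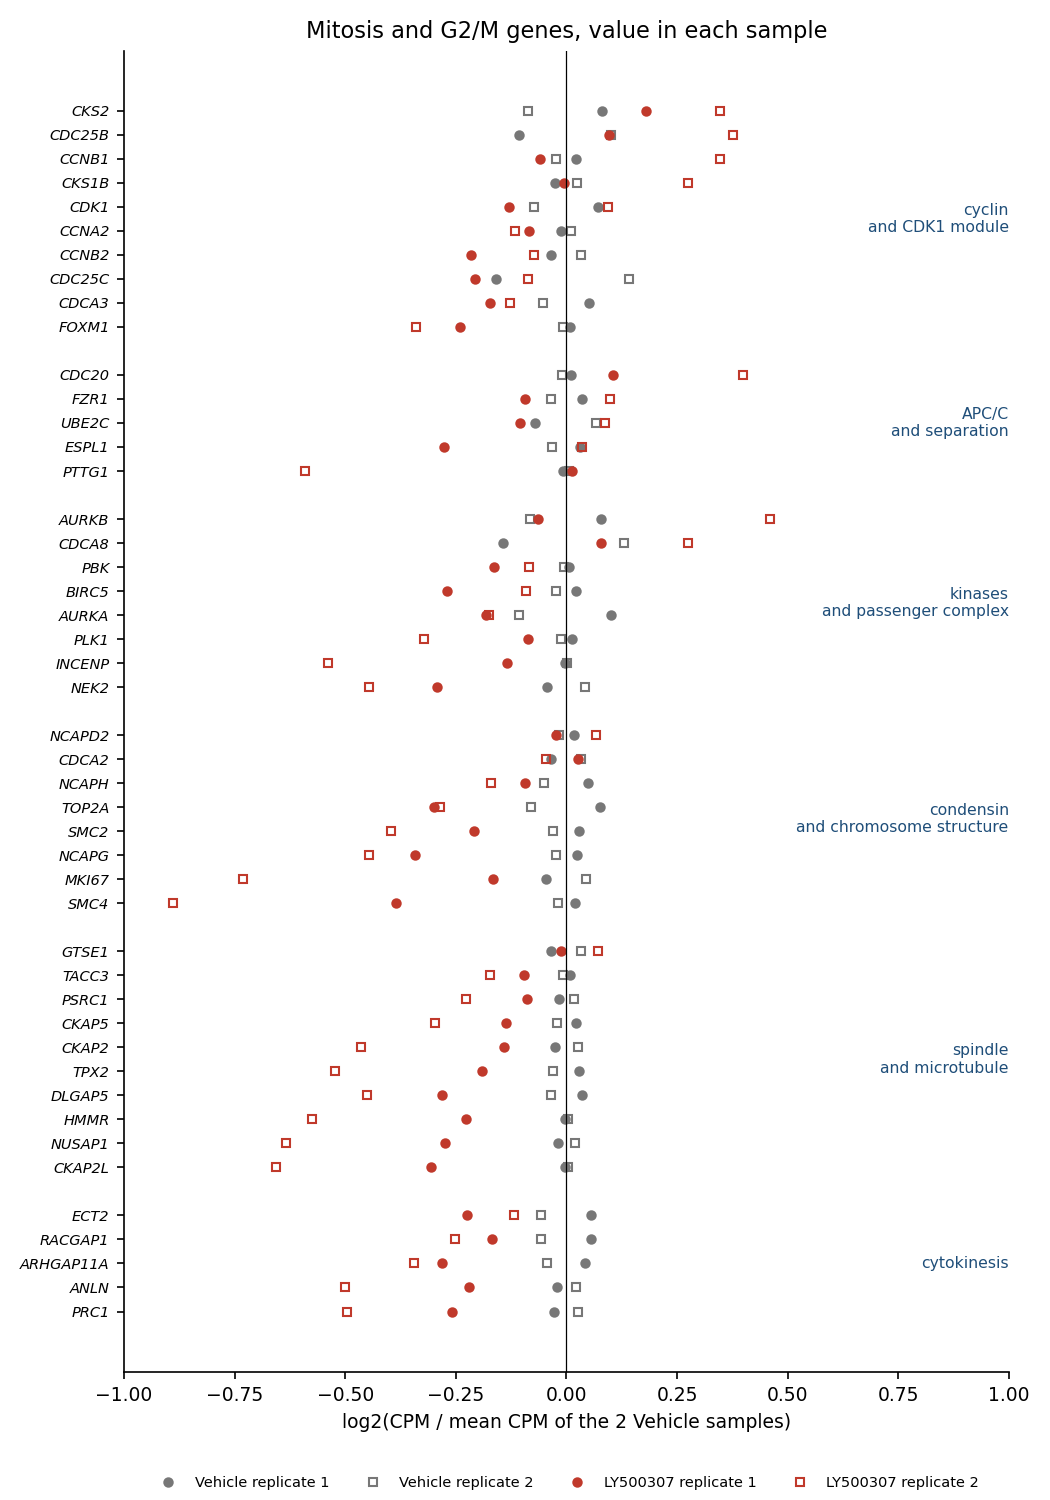
Each member's level in each of the 4 samples (horizontal axis: log2 of CPM over the mean CPM of the 2 vehicle samples; grey, vehicle; red, LY500307; filled circles, replicate 1; open squares, replicate 2), grouped by role. In the spindle, cytokinesis and condensin groups most red points lie left of both grey points, with LY500307 replicate 2 farther left, whereas CCNB1, CDC20, CKS2 and AURKB have LY500307 replicate 2 on the right.

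The count of 16 changed when any sample was left out. It was 2 without vehicle replicate 1, 1 without vehicle replicate 2, 25 without LY500307 replicate 1 and 24 without LY500307 replicate 2, where the shares of all genes lower at this p were 1.91%, 2.16%, 20.6% and 8.14%. With the replicate number as a block it was 10 under GC correction (5.06% of all genes) and 17 under length correction (6.63%). It was 15 with library totals (4.1%), 16 with DESeq2 size factors in edgeR (5.4%), 17 with every gene that had a read (5.32%) and 17 with crossed pairs (8.34%). The lone sample of a group is assumed, where a sample was left out, to vary like the other group. The median log2 fold change ranged from -0.21 to -0.16 when each sample was left out, and was -0.13 with library totals. In LY500307 replicate 1, 40 of the 46 members lay below the vehicle mean, against 7272 of the 14473 genes tested. The members' median log2 ratio there was -0.16. In LY500307 replicate 2, 33 members lay below it, against 7311 of all genes, and the members' median was -0.17.

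Of the 10 genes of the CDK1 switch, 1 was lower and 1 higher at an unadjusted p below 0.05, against 5.5% and 6.09% of all genes. Their median log2 fold change was -0.06 (0.05 with GC correction). CDK1, the kinase that drives entry into mitosis, was at 321 and 290 CPM with vehicle and at 280 and 326 CPM with LY500307. These values overlap, and the log2 fold change was -0.01 (standard error, SE, 0.12), a sign that turned to 0.03 with library totals alone and to 0.17 with GC correction. CCNB1, which encodes cyclin B1, its main partner, was at 186 and 181 CPM with vehicle and at 176 and 233 CPM with LY500307. Only LY500307 replicate 2 was above the vehicle samples, and the log2 fold change was 0.16 (SE 0.14), or -0.06 without that sample. The other mitotic cyclins, CCNA2 and CCNB2, had log2 fold changes of -0.10 and -0.14, and CDC25B and CDC25C, phosphatases that activate CDK1, of 0.24 and -0.15. CDCA3, which promotes mitotic entry, had -0.15. The genes of the CDK1 switch given so far did not pass an unadjusted p of 0.05.

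CKS2 encodes a small protein that binds CDK1 and lies on chromosome 9 from 91926110 to 91931618 of GRCh37, on the plus strand. It was at 140 and 125 CPM with vehicle and at 150 and 168 CPM with LY500307, so that both LY500307 samples were above both vehicle samples. The log2 fold change was 0.27 (SE 0.11, edgeR's unadjusted p 0.0441, adjusted p 0.427), and its paralogue CKS1B had 0.14 with overlapping groups. CKS2 did not pass an unadjusted p of 0.05 with DESeq2, with the replicate block or with length correction, where its log2 fold change was 0.13. FOXM1, the forkhead transcription factor of G2/M genes, went the other way. Its values were 137 and 136 CPM with vehicle and 116 and 108 CPM with LY500307, without overlap. The log2 fold change of FOXM1 was -0.29 (SE 0.10, edgeR's unadjusted p 0.0175, adjusted p 0.422), or -0.37 with GC correction. FOXM1 is the 1 member of these 10 genes that was lower at an unadjusted p below 0.05.

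Regulators of the APC/C and of sister chromatid separation did not pass an unadjusted p of 0.05 in either direction, with 0 of 5 members. Over all genes 5.5% were lower and 6.09% higher, and with 5 members a count of 0 lies near these shares. The median log2 fold change was -0.01. With GC correction the median was -0.13, and when each sample was left out it ranged from -0.0914 to 0.0896. CDC20, the activator of the APC/C in metaphase, was at 46.6 and 45.9 CPM with vehicle and at 49.8 and 61.0 CPM with LY500307. Both LY500307 values were above the vehicle values, and the log2 fold change was 0.26 (SE 0.13). FZR1, the activator of late mitosis and G1, was at 65.4 and 62.3 CPM with vehicle and at 59.8 and 68.3 CPM with LY500307, values that overlap. UBE2C, the ubiquitin-conjugating enzyme of the APC/C, was at 61.2 and 67.3 CPM with vehicle and at 59.8 and 68.2 CPM with LY500307. Its log2 fold change was -0.01 (SE 0.12), and that of FZR1 was 0.01 (SE 0.11). PTTG1, which encodes securin, was at 44.4, 44.8 and 45.0 CPM in the vehicle samples and LY500307 replicate 1, and at 29.6 CPM in LY500307 replicate 2, which alone was low (log2 fold change -0.26, SE 0.19). ESPL1, which encodes separase, had a log2 fold change of -0.11.

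Among the mitotic kinases and the chromosomal passenger complex, 2 of 8 members were lower at an unadjusted p below 0.05, NEK2 and INCENP. The share of all genes was 5.5%. The count was 1 of 8 with library totals (4.1% of all genes) or with a filter at a mean CPM of at least 1 (5.6%). It was 3 of 8 with GC correction (4.73% of all genes), alone or with the replicate block (5.06%). NEK2, a kinase of centrosome separation, was at 61.0 and 64.7 CPM with vehicle and at 51.3 and 46.1 CPM with LY500307. The groups do not overlap, and the log2 fold change was -0.37 (SE 0.11, edgeR's unadjusted p 0.0115). PLK1, the Polo-like kinase of mitotic entry and spindle assembly, was at 107 and 105 CPM with vehicle and at 100 and 84.9 CPM with LY500307. Its log2 fold change was -0.20 (SE 0.11), and it did not pass an unadjusted p of 0.05 in the main fit. With GC correction, alone or with the replicate block, PLK1 did pass, at a log2 fold change of -0.29. AURKA, the Aurora kinase of the spindle poles, was at 109 and 94.7 CPM with vehicle and at 90.0 and 90.4 CPM with LY500307 (log2 fold change -0.18, SE 0.11). PBK, a mitotic kinase, had -0.12.

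The log2 fold changes of the passenger complex subunits differed in sign, but only INCENP passed an unadjusted p of 0.05. INCENP, its scaffold, was at 129 and 130 CPM with vehicle and at 118 and 89.0 CPM with LY500307 (log2 fold change -0.32, SE 0.14, edgeR's unadjusted p 0.0479). AURKB, its kinase, was at 45.6 and 40.9 CPM with vehicle and at 41.3 and 59.5 CPM with LY500307. Of the LY500307 samples, only replicate 2 was above the vehicle samples, and the log2 fold change of AURKB was 0.22 (SE 0.17), or -0.06 without that sample. BIRC5, which encodes survivin, was at 100 and 97.1 CPM with vehicle and at 81.7 and 92.6 CPM with LY500307, without overlap. Its log2 fold change was -0.18 (SE 0.11), and that of CDCA8, which encodes borealin, was 0.18 with overlapping groups. The differences between subunits were not tested.

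**Figure D2:**
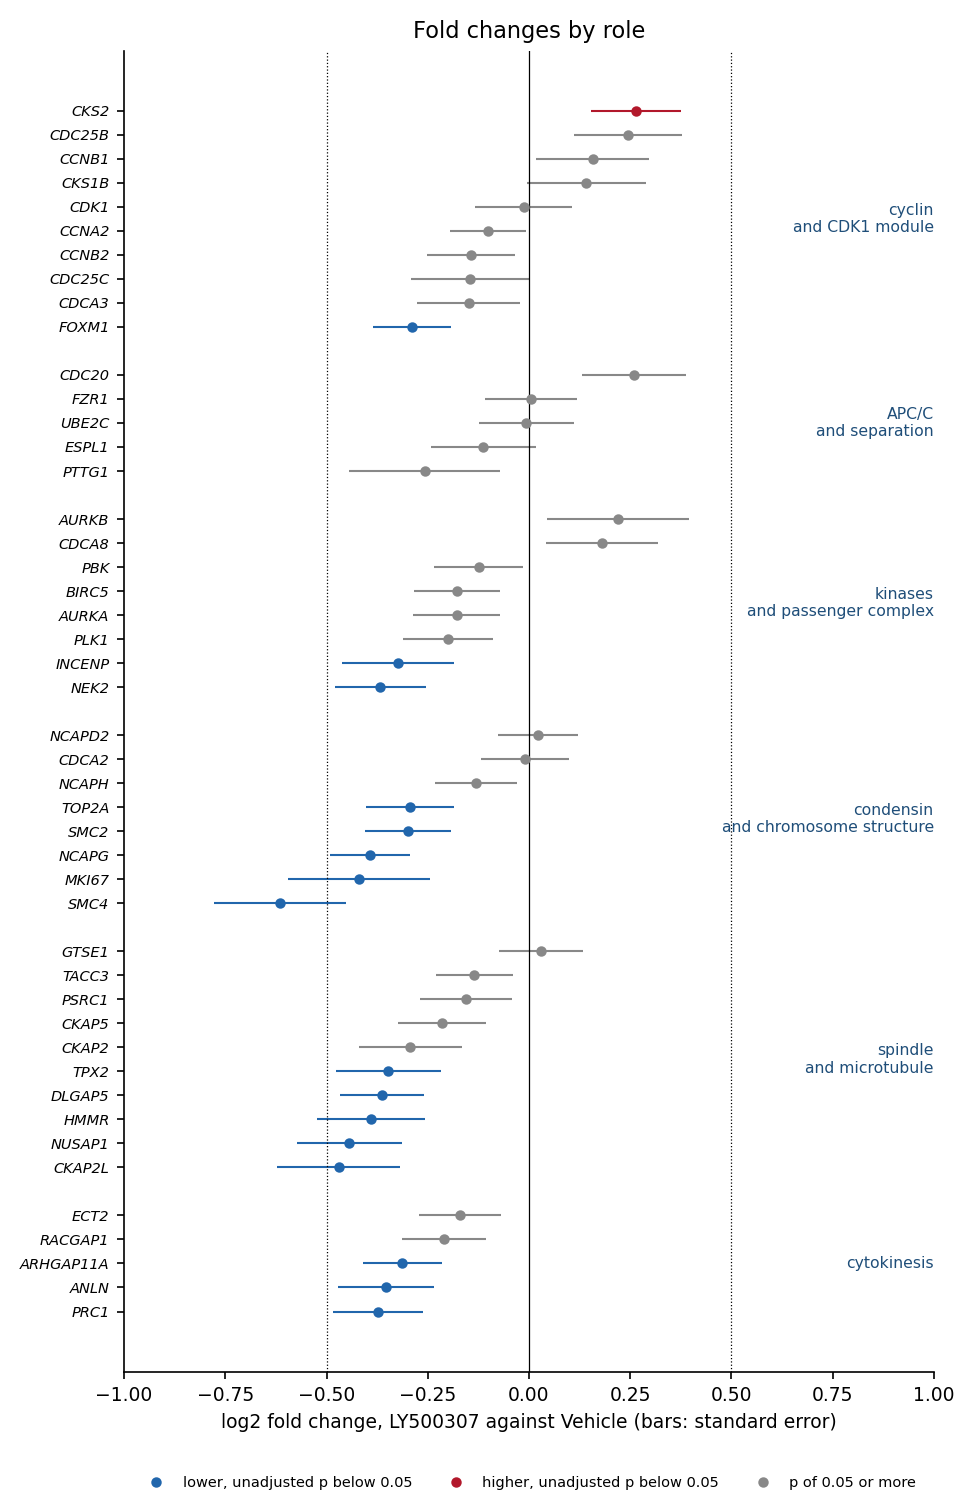
Log2 fold change of each member, LY500307 against vehicle, from edgeR (points) with its standard error (bars), grouped by role; blue, lower and red, higher at an unadjusted p below 0.05; grey, p of 0.05 or more; dotted lines at -0.5 and 0.5. SMC4 at -0.62 is the only point past a dotted line, and 8 of the 10 points right of 0 are in the cyclin, kinase and APC/C groups.

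Condensin and chromosome structure genes had 5 of 8 members lower at an unadjusted p below 0.05, against 5.5% of all genes. Their median log2 fold change was -0.30. With GC correction 3 members were lower, against 4.73% of all genes, and the median was -0.17. SMC4 encodes a core ATPase of condensin and lies on chromosome 3 from 160117062 to 160152742 of GRCh37, on the plus strand. It was at 526 and 512 CPM with vehicle and at 398 and 280 CPM with LY500307, or 519 ± 9.77 CPM against 339 ± 83.1 CPM (SD, n = 2 each). Both LY500307 samples were far below the vehicle samples, and SMC4 fell by 34.7%. The log2 fold change was -0.62 (SE 0.16, edgeR's unadjusted p 0.00541, adjusted p 0.422). Without LY500307 replicate 2 it was -0.38, within the limit of 0.5, and without LY500307 replicate 1 it was -0.89.

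SMC2, the partner of SMC4 in the condensin core, was at 119 and 114 CPM with vehicle and at 101 and 88.7 CPM with LY500307 (log2 fold change -0.30, SE 0.11), but did not pass with GC correction (-0.17). NCAPG, a subunit particular to condensin I, had the smallest p of all members. It was at 110 and 106 CPM with vehicle and at 85.5 and 79.5 CPM with LY500307 (log2 fold change -0.39, SE 0.10, edgeR's unadjusted p 0.00428, adjusted p 0.422). The remaining subunits of condensin I did not pass, with log2 fold changes of -0.13 for NCAPH and 0.02 for NCAPD2. NCAPD2 was at 197 and 192 CPM with vehicle and at 191 and 204 CPM with LY500307, values that overlap.

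TOP2A, which encodes topoisomerase IIα, was at 662 and 594 CPM with vehicle and at 510 and 515 CPM with LY500307. It had the highest mean CPM of the members in each group, its LY500307 values lay close together and below both vehicle values, and the log2 fold change was -0.29 (SE 0.11, edgeR's unadjusted p 0.0276). TOP2A did not pass with the replicate block or with GC correction, where its log2 fold change was -0.17. MKI67 encodes Ki-67, which coats mitotic chromosomes and is a common marker of dividing cells. It was at 597 and 636 CPM with vehicle and at 550 and 372 CPM with LY500307. Most of its difference lay in LY500307 replicate 2, and the log2 fold change of -0.42 (SE 0.18, edgeR's unadjusted p 0.0441) was -0.16 without that sample. MKI67 did not pass with length correction or with a filter at a mean CPM of at least 1. CDCA2, a phosphatase-targeting protein of anaphase chromatin, had -0.01.

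Spindle and microtubule genes had 5 of 10 members lower at an unadjusted p below 0.05, against 5.5% of all genes. Their median log2 fold change was -0.32. Leaving out LY500307 replicate 2 moved the median to -0.16, and leaving out LY500307 replicate 1 moved it to -0.46. DLGAP5, a stabilizer of kinetochore fibres, was at 155 and 148 CPM with vehicle and at 125 and 111 CPM with LY500307 (log2 fold change -0.36, SE 0.10). NUSAP1, which bundles spindle microtubules, was at 129 and 133 CPM with vehicle and at 109 and 84.5 CPM with LY500307 (log2 fold change -0.44, SE 0.13). For HMMR, a spindle assembly factor, the values were 70.2 and 70.6 CPM with vehicle and 60.2 and 47.3 CPM with LY500307. CKAP2L, a spindle-pole protein, was the member with the lowest level per length, at 30.5 and 30.6 CPM with vehicle and 24.7 and 19.4 CPM with LY500307. In all of these genes LY500307 replicate 2 was lower than replicate 1, which was itself below both vehicle samples. The log2 fold change was -0.39 for HMMR and -0.47 for CKAP2L, and -0.35 for TPX2, the activator of Aurora A. HMMR did not pass with GC correction (-0.26).

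The rest of the spindle members did not pass an unadjusted p of 0.05. CKAP2 missed it at 0.0501, with a log2 fold change of -0.29, while the last member inside it was INCENP at 0.0479. CKAP5, a microtubule polymerase, and its partner TACC3 had -0.21 and -0.13, PSRC1 had -0.16 and GTSE1 had 0.03. Except in GTSE1, the LY500307 values of these genes lay under the vehicle values.

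In all 5 cytokinesis members the LY500307 values lay below the vehicle values without overlap, against 24.4% of all genes. At an unadjusted p below 0.05, 3 of them were lower, against 5.5% of all genes. With GC correction 2 were lower, against 4.73% of all genes, and with the replicate block as well 1 was, against 5.06%. The median log2 fold change of the 5 members was -0.31, and -0.20 with GC correction. PRC1, which bundles the central spindle, was at 147 and 152 CPM with vehicle and at 125 and 106 CPM with LY500307 (log2 fold change -0.37, SE 0.11). ANLN, which encodes anillin of the contractile ring, was at 211 and 217 CPM with vehicle and at 184 and 151 CPM with LY500307 (log2 fold change -0.35, SE 0.12). ARHGAP11A, a RhoA-directed GTPase-activating protein, was at 175 and 165 CPM with vehicle and at 140 and 134 CPM with LY500307. Its replicates lay close together within each group, and the log2 fold change was -0.31 (SE 0.10), or -0.20 with GC correction, where it did not pass. RACGAP1 and ECT2, which act together to switch on RhoA at the cell equator, had -0.21 and -0.17 and did not pass.

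**Figure D3:**
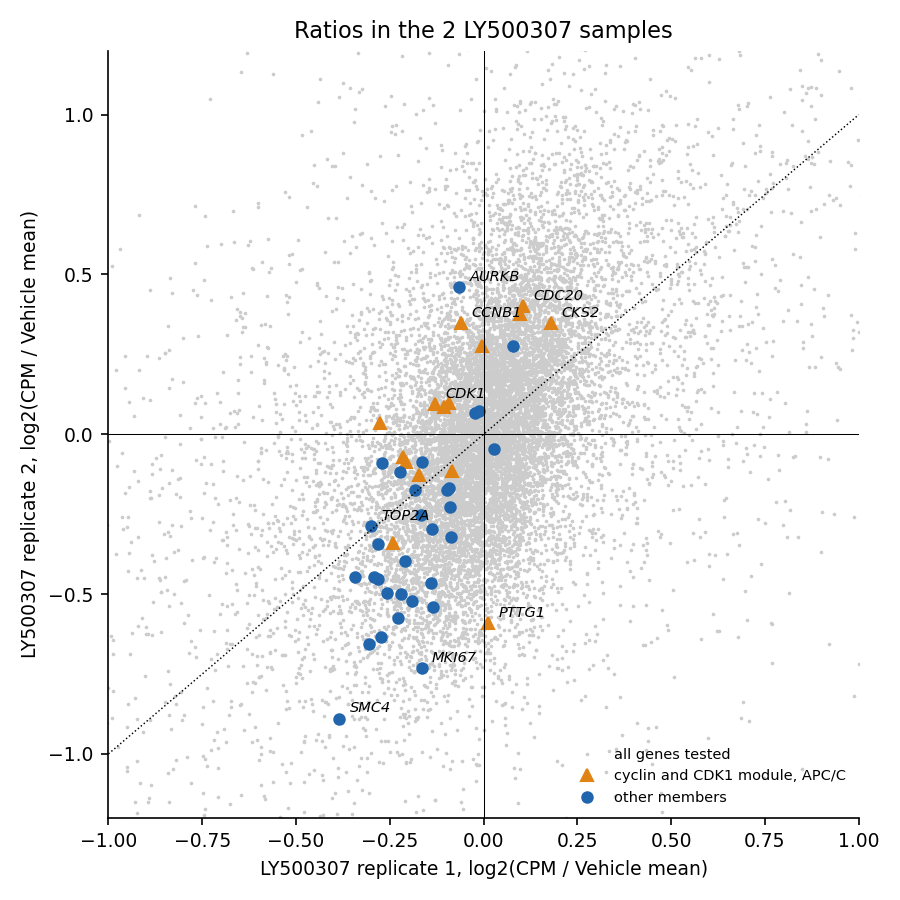
Log2 of CPM over the vehicle mean in LY500307 replicate 1 (horizontal) and replicate 2 (vertical) for members (blue circles, and orange triangles for the CDK1 and APC/C groups) over all genes tested (grey, some outside the axes); the dotted line marks equal ratios. Of the 16 members lower at an unadjusted p below 0.05, 15 were lower in replicate 2 than in replicate 1, and AURKB, CCNB1 and PTTG1 have opposite signs in the samples.

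Levels were compared between members per length of the canonical transcript, in CPM per kb. With vehicle, CKS2 was highest at 215 CPM per kb, followed by CDK1 at 162, TOP2A at 110 and SMC4 at 102 CPM per kb. With LY500307, CKS2 was at 258 and CDK1 at 160 CPM per kb, followed by CCNB1 at 101, TOP2A at 90.0, UBE2C at 82.4 and SMC4 at 66.2 CPM per kb. ESPL1 and CKAP2L were lowest in both groups, at 9.68 and 6.47 CPM per kb with vehicle.

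The members also differed by transcript length and base composition. The 16 members lower at an unadjusted p below 0.05 had a median canonical transcript length of 4350 bases and a median exonic GC content of 40.2%, whereas the other members had 2265 bases and 47.6%. None of the 11 members with a transcript under 2000 bases, a limit chosen after the values were seen, was lower at that p, against 2.67% of the 3300 genes tested of that length, while 16 of the 35 longer members were, against 6.33% of 10325 genes. With so few short members, a count of 0 lies near that share. Over the members, the log2 fold change had a Spearman's rho of -0.43 with length and 0.42 with GC content, as a description across genes that share the same 4 libraries. Over all genes tested with an annotation, rho was -0.23 (13625 genes) with length and 0.33 (13786 genes) with GC content, and genes under 2000 bases had a median log2 fold change of 0.11. The length correction used the merged length of all exons of a gene, not that of the canonical transcript. With it 16 members were lower at an unadjusted p below 0.05, against 5.34% of all genes. With a correction for GC content 13 were, against 4.73%. The median log2 fold change of the members was -0.21 and -0.18 under these corrections.

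**Figure D4:**
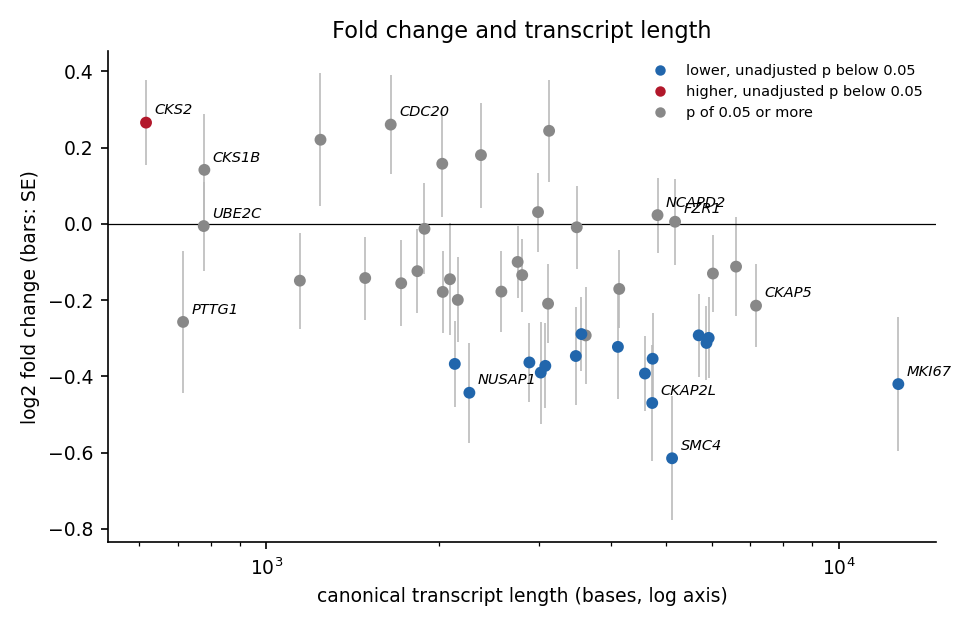
Log2 fold change of the 46 members (vertical; bars, standard error) against the length of the canonical transcript in bases (horizontal, log axis); blue, lower and red, higher at an unadjusted p below 0.05; grey, p of 0.05 or more. No blue point lies under 2000 bases, and the shortest member, CKS2 at 616 bases, is the red point.

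Related lists of genes that work in the same pathway were described from the same fit, by counts and medians only. Over all genes tested, 5.5% were lower and 6.09% higher at an unadjusted p below 0.05. Of 48 other genes of mitotic entry and exit, 9 were lower at an unadjusted p below 0.05 and 0 were higher, with a median log2 fold change of -0.13. They included CEP55, which acts in abscission (-0.61), ASPM, a spindle-pole protein (-0.42), the kinase MELK (-0.38) and DEPDC1 (-0.30). AURKC, an Aurora kinase best known from germ cells, had -1.44 at no more than 2.27 CPM in any sample. Among 13 mitotic kinesins, 8 were lower and 0 higher, with a median of -0.31. KIF14, a kinesin of cytokinesis, led them at -0.49 (SE 0.10), followed by KIF20B, KIF4A, KIF23 and KIF20A between -0.46 and -0.31. For 46 kinetochore and checkpoint genes 16 were lower and 1 was higher, with a median of -0.18. SGOL2, CASC5, CENPC1 and CENPE, proteins of the centromere and kinetochore, had log2 fold changes between -0.58 and -0.51. Of 53 DNA replication genes, 8 were lower and 0 higher, with a median of -0.08. POLA1, CLSPN, CDC7, DBF4 and TOPBP1 were the leading ones, from -0.44 to -0.26.

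Of 18 genes that hold cells in G2 or inhibit CDKs, 3 were higher (16.7%) and 1 was lower (5.56%) at an unadjusted p below 0.05. Over all genes these shares were 6.09% and 5.5%, so the lower count lay near the share of all genes. The median log2 fold change was 0.07, and it ranged from -0.03 to 0.12 when each sample was left out. CDKN1A, which encodes the CDK inhibitor p21, was at 265 and 274 CPM with vehicle and at 418 and 473 CPM with LY500307. Its values did not overlap, with a log2 fold change of 0.72 (SE 0.11, edgeR's unadjusted p 0.00018, adjusted p 0.422). CDKN1A met both of the study's limits, as did 2.76% of all genes in the higher direction. In SKOV3 OCSCs treated with LY500307 the paper also found more p21 protein by Western blot. RPS27L and BTG2, which are p53 targets, had 0.60 and 0.39, and the stress kinase gene ZAK had -0.31. WEE1, PKMYT1, CHEK1 and CHEK2 did not pass.

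**Figure D5:**
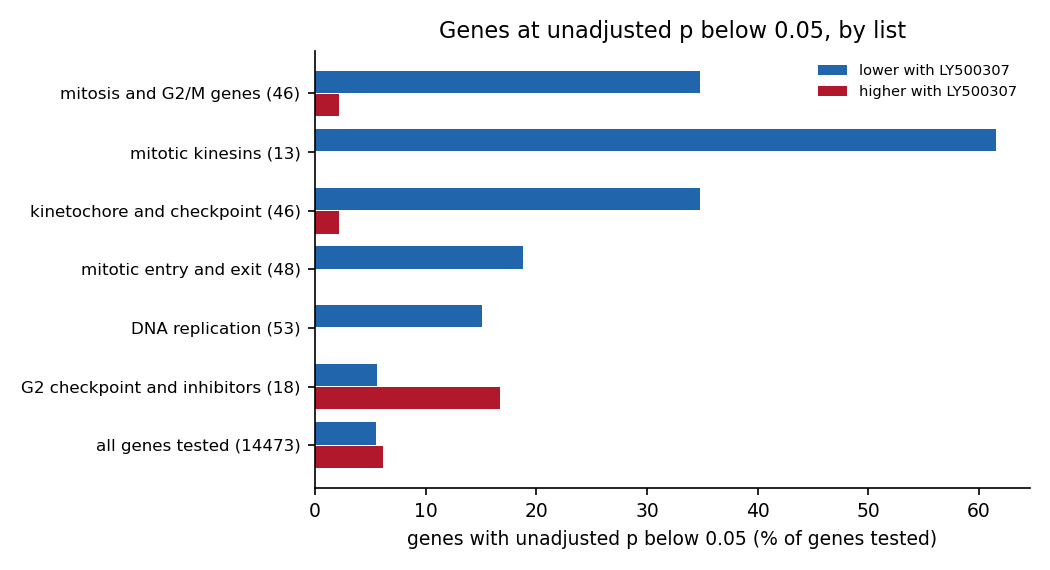
Share of the genes in each list (number tested in brackets) with an unadjusted p below 0.05 in edgeR's test, in percent; blue bars, lower and red bars, higher with LY500307. The mitosis and G2/M genes reach 34.8% lower and 2.17% higher, the mitotic kinesins 61.5% lower, and all genes tested 5.5% lower and 6.09% higher.

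Some members overlap other genes. Counting by strand was not stated, and exons of a gene on the opposite strand cover 33.7% of the exonic bases of NCAPG (LCORL), 19% of SMC4 (TRIM59) and 15.9% of FOXM1 (ITFG2). ARHGAP11A, PTTG1 and the CKS genes have near-identical copies in the genome, so their counts are uncertain. Reads shared between genes were not measured.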

How the data were processed

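RNA from SKOV3-ALDH+ OCSCs was sequenced in 2 vehicle and 2 LY500307 samples. The deposited values are raw counts of reads per gene symbol, which the authors made with TopHat2 2.0.8b (hg19) and HTSeq, per the labels and processing notes. The strand setting and annotation release are not given in the sources used here, and the paper's methods describe stranded mRNA libraries where the labels describe total RNA libraries with single-end reads. Tally lines of reads outside genes (17.3% to 20.5% of tallied reads on no feature) stayed out of library sizes and tests.

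The test was edgeR 4.0.16's in R 4.3.3 (filterByExpr, TMM, quasi-likelihood test, Benjamini-Hochberg adjustment over 14473 genes, two-sided). The standard error is the absolute log2 fold change divided by the square root of F. The study's limits were kept, with log2 fold changes past 0.5 in size at an unadjusted p under 0.05. DESeq2 1.42.0 was an alternative. Length and GC content came from GENCODE v44 on GRCh37, which matched 91.8% of symbols, 2184 of them by an older symbol. Loess corrections (span 0.3) for the merged length of all exons or for GC content entered as offsets. Promoters were from the RefSeq table.

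The members and lists were chosen with earlier results of these data known. Named in full were members meeting both limits, those with the smallest p until 12 were reached, 12 fixed central genes and any member higher at p below 0.05, and from each related list up to 5 genes with p below 0.05, of which 1 is not reported here. NCAPD2, INCENP and PTTG1 were given in full, and WEE1, PKMYT1, CHEK1 and CHEK2 named, after their values were seen. The fit was tested on simulated data with the same spread in both groups. The LY500307 samples here differed more from each other than the vehicle samples did, which that simulation does not cover. Replicate numbers come from the labels. Over all genes, deviations of same-numbered samples correlated at -0.07, and the numbers were taken as not pairing samples.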

Additional observations from a re-analysis of the deposited data

How the results depend on the processing

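No alternative varied depth, so its limits were not tested. Beside DESeq2, other scalings and filters, and replicate block, GC and length corrections, each sample was left out in turn. The number of members lower at an unadjusted p below 0.05 was 10 to 17 across the alternatives that kept all samples, with 10 for the replicate block with GC correction, and 9 of these were among the 16. The number higher was 0 with DESeq2, with the replicate block, with length correction and with both of the latter together. The members' median log2 fold change was -0.13 with library totals and -0.21 with the block and length correction, which also gave 1 member an adjusted p below 0.05. Over all genes that count was 20 with DESeq2, 1 with the replicate block, 3 with block and GC correction and 127 with block and length correction. Genes meeting both limits numbered 269 lower and 400 higher, against 210 and 484 with library totals, 273 and 285 with GC correction, 288 and 297 with length correction, 303 and 273 with block and GC correction, and 359 and 319 with block and length correction. The replicate block is one in which the numbers did not pair the samples. Over the more highly expressed genes the correlation was -0.23, and a crossed pairing, chosen after seeing the data, gave 2 members and 381 genes at an adjusted p below 0.05, 1207 genes lower at an unadjusted p below 0.05, 14 of them in mitotic entry and exit and 2 in the G2 list. The cause of these changes was not tested.

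CDK1 reversed to 0.0282 with library totals and to 0.17 with GC correction, alone or with the block, UBE2C reversed to 0.0351 with library totals and to 0.0001 with upper-quartile factors, and FZR1 to -0.13 with GC correction, alone or with the block. For mitotic entry and exit the median was -0.0898 with library totals, -0.0856 with GC correction and -0.0929 with block and GC correction, where its count of lower genes was 5. For kinetochore genes it was -0.13 with GC correction, -0.14 with block and GC correction, and -0.24 with length correction, alone or with the block. For DNA replication it was -0.0378 with library totals, and its count of lower genes was 5 with GC correction. The G2 list had 0 lower genes with GC or length correction, alone or with the block.

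Leaving out each sample in turn gave 0 to 8 members meeting both limits in the lower direction, 1 to 25 lower and 0 to 7 higher at an unadjusted p below 0.05, and 0 to 28 at an adjusted p below 0.05. The median ranged from -0.21 to -0.16. Over all genes the counts were 204 to 920 lower and 148 to 1067 higher by both limits, 283 to 3067 lower and 424 to 2945 higher by p alone, and 0 to 5002 by adjusted p. Lower genes numbered 2 to 24 in mitotic entry and exit (median -0.17 to -0.10), 0 to 4 in the G2 list (-0.0277 to 0.12), 0 to 11 among kinesins (-0.35 to -0.26), 6 to 22 among kinetochore genes (-0.23 to -0.14) and 1 to 18 in DNA replication (-0.083 to -0.0629). By role, lower members numbered 0 to 3 in the CDK1 switch (median -0.10 to 0.0137), 0 to 4 among kinases (-0.21 to -0.13), 0 to 1 in the APC/C group (-0.0914 to 0.0896), 1 to 6 in condensin (-0.35 to -0.18), 0 to 9 in the spindle (-0.46 to -0.16) and 0 to 5 in cytokinesis (-0.34 to -0.22). Signs turned for CCNB1 (-0.0581 to 0.35), CDK1 (-0.13 to 0.10), AURKB (-0.0629 to 0.46), UBE2C (-0.10 to 0.0896) and FZR1 (-0.0914 to 0.10). SMC4 ranged from -0.89 to -0.38, and NUSAP1, CKAP2L, HMMR and MKI67 met both limits without LY500307 replicate 1.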

Other observations

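In 11 of the 46 members the LY500307 samples lay on opposite sides of the vehicle mean. These were CCNB1, CDK1, CKS1B, AURKB, UBE2C, FZR1, ESPL1, PTTG1, NCAPD2, GTSE1 and CDCA2. In 31 members both LY500307 samples were below the vehicle mean and in 4 both were above it, namely CKS2, CDC20, CDC25B and CDCA8. These counts of signs were not made over all genes. The members that were lower at an unadjusted p below 0.05 had a median log2 ratio to the vehicle mean of -0.27 in LY500307 replicate 1 and of -0.50 in replicate 2.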
